A study of Macaca fascicularis with 7 samples.

Results

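The comparison described here is oocyte maturation in the animal: metaphase II (MII) oocytes matured in vivo (IVO) against immature germinal vesicle (GV) oocytes of the cynomolgus monkey (Macaca fascicularis), across all genes. Its members are the 4 libraries that the labels assign to these groups, 2 GV and 2 IVO MII, of 7 in the series; the other 3 hold MII oocytes matured in culture (IVM). Only 241 of the tested genes (1.47%) passed the test between IVM and IVO MII, and the IVM MII libraries serve here to estimate the spread. Both groups compared are labelled wild type, with the treatment entry control. The labels give no age, animal, hormone treatment or number of oocytes per library, so each library may pool an unstated number of cells, and the p-values below rest on the differences between these particular samples, which may be technical only. In such libraries fewer cells of a type and less RNA per cell cannot be told apart.

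A fully grown GV oocyte is held in prophase of the first meiotic division and carries a large store of maternal mRNA. When meiosis resumes, transcription is silent, the first polar body is extruded and the egg stops again at metaphase II until fertilisation. Maternal mRNAs are meanwhile handled after transcription: tails are shortened or extended, some transcripts are translated and many are degraded. The RNA was reverse transcribed from its poly(A) tail, so a count follows transcripts with a tail the primer could reach, and tail length was not measured. Values are given as CPM, counts relative to the scaled size of the library, and so are shares of a library's RNA; they give no amount per oocyte.

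The 4 libraries held 22901970 to 26343911 counts, and the 16374 genes that passed the filter on low counts held at least 99.9% of them. At 1 CPM of the unscaled totals, 14077 and 14017 genes were detected in GV and 11569 and 12269 in IVO MII, and on scaled CPM 13364 and 13382 against 11876 and 12319. The GV libraries were above the IVO MII libraries on both scales. The 10 most abundant genes took 6.82% and 6.60% of the counts in GV and 16.4% and 13.4% in IVO MII. Of 16 oocyte marker genes 16 were in the table and none was under 1 CPM in all 4 libraries, with summed levels of 15037 and 12770 CPM in GV and 9171 and 11410 in IVO MII. Of 19 cumulus and granulosa markers in the table, 11 lay under 1 CPM in all 4 libraries, with sums of 302 and 114 CPM against 247 and 286, and 2 of the 8 tested rose. The 11 blood and immune markers in the table summed to 0.605 to 3.77 CPM. The labels list the alignment files of the GV libraries under another folder than those of all MII libraries; what the folders stand for is not stated, and folder and group cannot be told apart.

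Between GV and IVO MII, 4596 genes (28.1% of those tested) differed in level in edgeR's quasi-likelihood test at an adjusted p under 0.05. Of these, 2392 (14.6%) were higher in IVO MII and 2204 (13.5%) were lower. The fallen genes had moved further. Their median change was 3.33 on the log2 scale, or 3.22 with genes at 0 counts placed at a floor of 3 counts per library, and 809 of 2204 lay beyond 16-fold. The median change of the risen genes was 2.20, and 182 of 2392 lay beyond 16-fold. A median fallen gene went from 31.0 CPM in GV to 3.17 in IVO MII, and 226 had no count in either IVO MII library. A median risen gene went from 17.6 to 79.9 CPM, and 30 had no count in either GV library.

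Seen as shares of the library, the risen genes held 20.4% of scaled CPM in GV and 58.4% in IVO MII. The fallen genes held 27.1% and 2.83%, and the 11778 genes without a call 52.5% and 38.8%. The split of calls depends on the scale and on the tool. With library totals in place of TMM (trimmed mean of M values) scaling, 1340 genes rose and 3123 fell, so that the share of higher calls went from 52.0% to 30.0% and the median over all genes, on the log2 scale, from -0.16 to -0.78. Rises are therefore rises relative to the other transcripts of the library. More genes fell than rose in a fit of only the 4 libraries (2440 higher, 2931 lower) and with DESeq2 (2858, 3301). The order was the same with limma voom (2624, 3443), a newer edgeR fit (2873, 3440) and no filter (2302, 2349). With upper quartile scaling (2398, 2189) and with a replicate block (2498, 2428) more genes rose. There were 651 higher and 833 lower calls without GV replicate 1 and 861 and 839 without GV replicate 2. Leaving out IVO MII replicate 1 gave 1593 and 1418. None of the genes called in the full data had the opposite sign in any alternative that tested it.

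**Figure D1:**
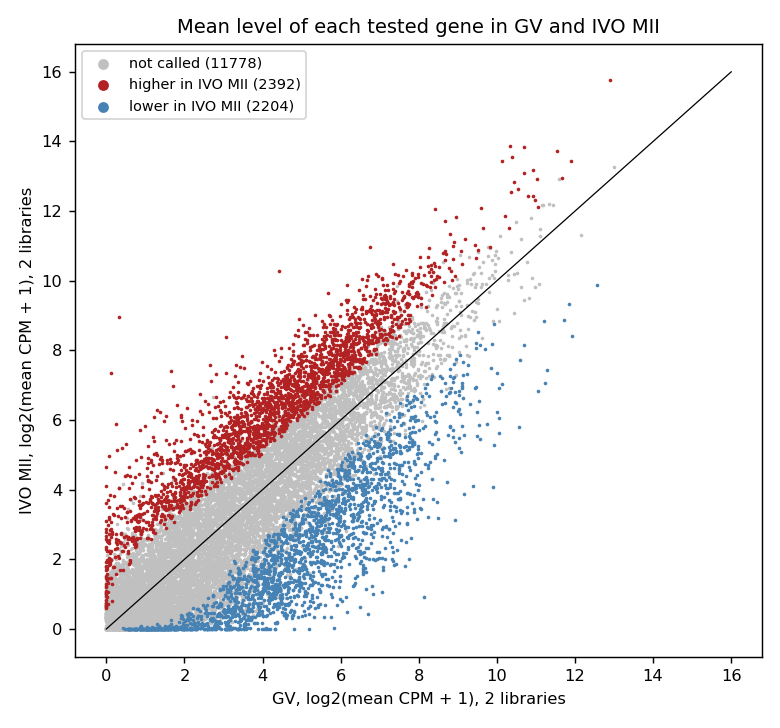
Mean level of each of the 16374 tested genes in the 2 GV libraries (x axis) and the 2 IVO MII libraries (y axis), as log2(CPM + 1), with the line of equal levels. The 2204 genes lower in IVO MII (blue) reach down to 0 CPM, while the 2392 higher genes (red) lie above the line over the whole range of GV levels.

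Risen genes were longer than fallen genes. The tested genes were divided into 5 length classes of equal size. In the shortest class, with exonic lengths of 152 to 1451 bases in the deposited table, 9.59% rose and 21.2% fell, with a median log2 fold change of -0.73. In the longest class, of 5732 to 75988 bases, 24.1% rose and 5.50% fell, with a median of 0.59 (-0.022 with library totals without TMM). The classes between them had medians of -0.88, -0.34 and 0.22 in order of length. Risen genes had a median length of 4302 bases over 11 exon blocks and fallen genes 1974.5 bases over 7 blocks, against 2978 bases for genes without a call.

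The shortest and the longest class differed in the same direction at each level of expression, but the classes between them were not always in order. Among genes at 10 to 100 CPM in GV, 12.4% of the shortest class rose and 35.2% fell, against 33.0% and 7.61% of the longest class. Among genes at 100 CPM or more in GV the shares were 13.8% and 40.7% against 22.3% and 19.0%, and the class next to the longest lay above it, with 31.1% risen (median 0.33 against 0.16). The 2 IVO MII libraries were also taken singly. In replicate 1 the median log2 ratio of (CPM + 1) to the GV mean was -0.44 in the shortest and 0.34 in the longest class, and in replicate 2 it was -0.56 and 0.44, whereas GV replicate 1 against GV replicate 2 gave -0.15 and -0.05.

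**Figure D2:**
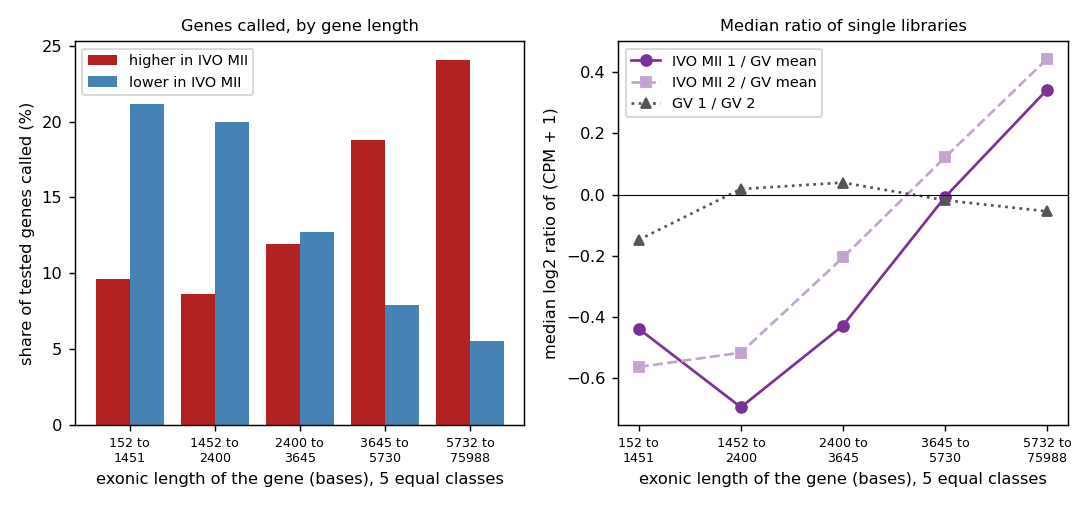
Left, share of tested genes in each of 5 equal classes of exonic length called higher (red) or lower (blue) in IVO MII. Right, median log2 ratio of (CPM + 1) of each IVO MII library to the GV mean, and of GV replicate 1 to GV replicate 2, in the same classes; the IVO MII lines go from -0.44 and -0.56 to 0.34 and 0.44, and the GV line stays between -0.15 and 0.04.

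Chromosomes 19 and 17 had the lowest and the highest median change of the 20 autosomes and X. On chromosome 19, 44 of 1014 tested genes rose and 213 fell (median log2 fold change -1.28), and its genes had a median length of 2546 bases. Chromosome 17 had a median of 0.51, with 21.1% risen and 8.38% fallen of 394 genes and a median length of 3212 bases. Among gene types, 4.41% of 499 long non-coding RNA genes rose and 13.0% fell, against 16.2% and 13.7% of 12464 protein-coding genes.

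The transcripts with the largest losses in CPM included mRNAs of unrelated functions. FBXW12, which encodes an F-box and WD repeat protein of ubiquitin ligases (chromosome 2, bases 103475855 to 103501282), was at 2419 and 2406 CPM in GV and 149 and 114 CPM in IVO MII (edgeR adjusted p = 0.0021, log2 fold change -4.19 with SE 0.48). The libraries of a group were close to each other and the groups lay far apart. VWF, von Willebrand factor, which is best known from endothelial cells (chromosome 11, bases 6156098 to 6343620), was at 991 and 1140.1 CPM in GV and 45.0 and 52.0 CPM in IVO MII (edgeR adjusted p = 0.0021, log2 fold change -4.46 with SE 0.35). It was the main part of the summed theca, stroma and endothelium markers, which went from 1094 and 1221 CPM in GV to 92.4 and 128 in IVO MII, while 8 of these 13 markers were under 1 CPM in all 4 libraries.

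COX6C, a subunit of cytochrome c oxidase, was at 991 and 1059.6 CPM in GV and 95.2 and 53.2 CPM in IVO MII (edgeR adjusted p = 0.00405, log2 fold change -3.79 with SE 0.63). COA1, an assembly factor of the same enzyme, was at 981 and 1253 CPM in GV and 144 and 117 CPM in IVO MII (edgeR adjusted p = 0.00211, log2 fold change -3.10 with SE 0.39). Both fell in each IVO MII library. C4H6orf52, an uncharacterised reading frame, had a log2 fold change of -4.01, the deubiquitinase gene USP2 -2.37 and TCL1B of the TCL1 oncogene family -3.51. TCL1B was uneven between the IVO MII libraries, at 124 and 559 CPM, both below its GV levels of 4301 and 3475. TCL1B lost its call without GV replicate 1 (edgeR adjusted p = 0.0515), USP2 without GV replicate 2 (adjusted p = 0.0537) and USP2 and TCL1B without IVO MII replicate 1 (adjusted p from 0.0653 to 0.0689).

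By fold change, the deepest losses were near-complete. IFI35, an interferon-induced gene, was at 39.1 and 32.2 CPM in GV and had not 1 count in IVO MII, lower by at least 266-fold (edgeR adjusted p = 0.00211). LGALS4, which encodes galectin 4, was at 139 and 125 CPM in GV and 0.51 and 1.66 CPM in IVO MII (edgeR adjusted p = 0.00298, log2 fold change -6.90 with SE 1.03). CD320, the cellular receptor for vitamin B12 bound to transcobalamin, was at 116 and 107 CPM in GV and 0 and 2.01 CPM in IVO MII (edgeR adjusted p = 0.00727, log2 fold change -6.75 with SE 1.32). These 3 genes had more than 30 CPM in each GV library and at most 2.01 CPM in any IVO MII library. TIMM10B, of the import machinery of the mitochondrial inner membrane, fell by 6.72 on the log2 scale, BRMS1, of a histone deacetylase corepressor complex, by 7.63, and PQBP1, a splicing-associated protein gene, by 7.35. OTC, the ornithine transcarbamylase of the urea cycle, had a log2 fold change of -6.71. OTC lost its call without GV replicate 1 (edgeR adjusted p = 0.0697) and without IVO MII replicate 2 (adjusted p = 0.0786).

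Among the largest gains in CPM were mRNAs already abundant in GV. TRAPPC8, a subunit of a vesicle tethering complex (chromosome 18, bases 50305689 to 50439797), was at 1683 and 1625 CPM in GV and 17313 and 11855 CPM in IVO MII (edgeR adjusted p = 0.00211, log2 fold change 3.14 with SE 0.39). BTG4, an adaptor that brings deadenylases to maternal mRNAs in oocytes (chromosome 14, bases 107454699 to 107476179), was at 1736 and 2125 CPM in GV and 12989 and 5642 CPM in IVO MII (edgeR adjusted p = 0.00911, log2 fold change 2.27 with SE 0.47). Its IVO MII libraries differed by more than its GV libraries, but the groups did not overlap. PTTG1, which encodes securin, the guard of sister chromatid cohesion, was at 646 and 888 CPM in GV and 5815 and 2938 CPM in IVO MII (edgeR adjusted p = 0.00734, log2 fold change 2.51 with SE 0.49). Its near-identical copy PTTG2 was at 1166 and 1501 CPM in GV and 15650.3 and 8493 CPM in IVO MII; reads may be split between the copies, so the separate values are uncertain. DPPA3, a maternal factor that protects methylated DNA, was at 2728 and 3265 CPM in GV and 17576 and 9605 CPM in IVO MII (edgeR adjusted p = 0.0125, log2 fold change 2.18 with SE 0.49). TMSB4X, which binds actin monomers, YPEL5, of the CTLH ubiquitin ligase, and SH2D4A, an SH2 domain adaptor, had log2 fold changes of 2.41, 2.10 and 1.55. WEE2, the oocyte kinase that inhibits CDK1, had 1.88. BTG4, PTTG1, DPPA3, TMSB4X, SH2D4A and WEE2 lost their calls without GV replicate 1 (edgeR adjusted p from 0.0601 to 0.137) and DPPA3, SH2D4A and WEE2 without GV replicate 2 (adjusted p from 0.056 to 0.184). DPPA3, SH2D4A and WEE2 lost their calls without IVO MII replicate 1 (edgeR adjusted p from 0.0545 to 0.0698), WEE2 without IVO MII replicate 2 (adjusted p = 0.104), without IVM MII replicate 1 (adjusted p = 0.0528) and SH2D4A and WEE2 with library totals without TMM (adjusted p from 0.0959 to 0.135).

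Other genes went from almost nothing to a clear level. DAPK1, a calcium-regulated death-associated kinase (chromosome 15, bases 98160784 to 98372334), was at 1.45 and 1.42 CPM in GV and 79.9 and 75.1 CPM in IVO MII (edgeR adjusted p = 0.0021, log2 fold change 5.75 with SE 0.53). FBN2, which encodes the microfibril protein fibrillin 2 (chromosome 6, bases 127242054 to 127512005), was at 0.514 and 0.474 CPM in GV and 27.8 and 20.3 CPM in IVO MII (edgeR adjusted p = 0.00211, log2 fold change 5.59 with SE 0.70). CNTNAP5, of the neurexin family, was at 1.39 and 1.83 CPM in GV and 48.5 and 100.1 CPM in IVO MII (edgeR adjusted p = 0.0021, log2 fold change 5.52 with SE 0.52). In each of these genes every GV library was under 2 CPM and every IVO MII library over 20. ITGAV, the integrin alpha V chain, rose by 6.75 on the log2 scale, ENPP2, the enzyme autotaxin, by 5.84, and ACVR1C, an activin and nodal receptor also called ALK7, by 6.50. CPS1, the carbamoyl phosphate synthetase that opens the urea cycle, was at 1.45 and 3.10 CPM in GV and 217 and 34.7 CPM in IVO MII, uneven between the IVO MII libraries but above GV in both. FABP9 and SLC9C2 rested on IVO MII replicate 1, at 59.8 against 1.31 CPM and 125 against 7.71 CPM in replicate 2. FABP9 lost its call without GV replicate 1 (edgeR adjusted p = 0.0516), FABP9 and SLC9C2 without GV replicate 2 (adjusted p from 0.0563 to 0.0743) and FABP9 without IVO MII replicate 1 (adjusted p = 0.159). FABP9 and SLC9C2 lost their calls with limma voom (adjusted p from 0.0557 to 0.118).

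**Figure D3:**
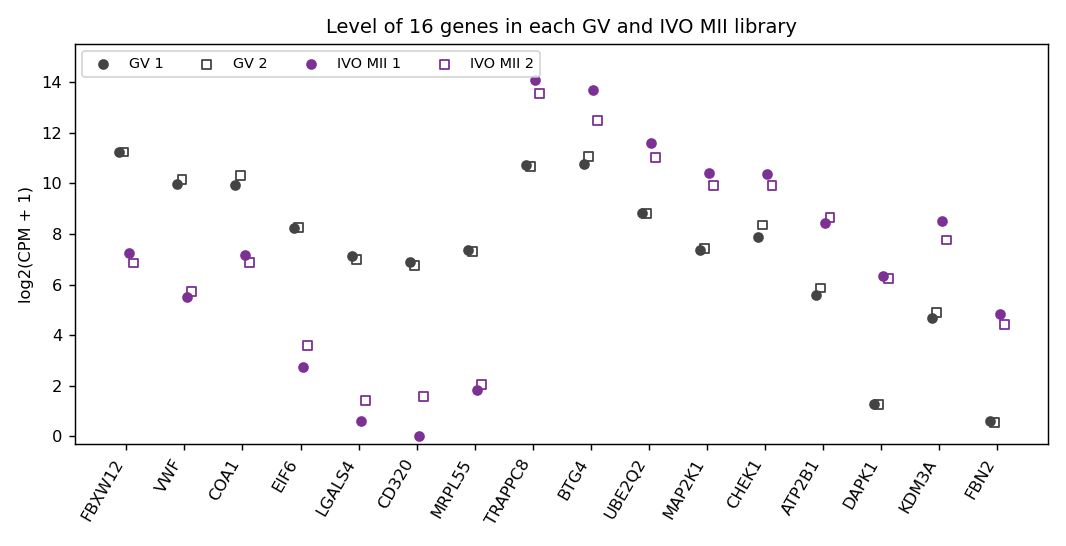
Level of 16 genes named in the text, as log2(CPM + 1), in each GV library (grey) and IVO MII library (purple); filled circles are replicate 1 and open squares replicate 2. From FBXW12 to MRPL55 all IVO MII points lie below the GV points, and from TRAPPC8 to FBN2 all lie above.

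The most abundant mRNAs changed places. Ranked by CPM per kilobase of exon, which allows levels of different genes to be compared, 46 of the 100 most abundant genes of GV were also among the 100 of IVO MII. Of the GV 100, 18 rose and 35 fell, and of the IVO MII 100, 58 rose and none fell (both sets were picked by level, which favours these directions). TMSB4X went from 2065 CPM per kilobase in GV to 10948 in IVO MII, DPPA3 from 2199 to 9971 and BTG4 from 846 to 4084. BCL2L10, an oocyte-abundant member of the BCL2 family, was at 2468 and 6255 CPM per kilobase, with a log2 fold change of 1.34 that did not pass the test (edgeR adjusted p = 0.131).

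Genes were then grouped by complex and pathway. Of 48 lists, more members rose than fell in 22, more fell in 17 and the counts were equal in 9. With library totals without TMM these numbers were 10, 36 and 2, so the lists below are read against all genes on the same scale. Members of a list are not independent, and no list was tested as a set.

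Many nuclear genes of oxidative phosphorylation fell. Complex I, the NADH dehydrogenase that feeds electrons into the respiratory chain, had 44 tested members, of which 24 fell and 1 rose, with a median log2 fold change of -2.46 against -0.16 for all genes. In complexes II to IV, 18 of 42 fell and 1 rose (median -2.28). In the ATP synthase and its assembly factors 10 of 16 fell and 1 rose (median -2.63). UQCRC1, a core subunit of complex III (chromosome 2, bases 103720830 to 103734559), was at 163 and 162 CPM in GV and 1.63 and 3.51 CPM in IVO MII (edgeR adjusted p = 0.0021, log2 fold change -5.98 with SE 0.67). NDUFB2, a small complex I subunit, was at 273 and 423 CPM in GV and 57.2 and 64.8 CPM in IVO MII (edgeR adjusted p = 0.0392, log2 fold change -2.51 with SE 0.76).

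In the ATP synthase, loss reached the catalytic head, the membrane ring and the stalks. ATP5A1, the alpha subunit of the head, was at 549.6 and 398 CPM in GV and 95.1 and 207 CPM in IVO MII (edgeR adjusted p = 0.0212, log2 fold change -1.65 with SE 0.42). ATP5G1 and ATP5G2, which encode the c subunit of the rotating ring, had log2 fold changes of -3.80 and -2.50, while ATP5G3, a further gene for the same subunit, had 0.20 (edgeR adjusted p = 0.767). The ring genes thus differed among themselves. ATP5H, ATP5J2, ATP5L, ATP5E, ATP5O and ATP5D fell with values from -6.15 to -2.49, and so did the assembly factor ATPAF2 (-3.46). ATP5B, the beta subunit, had -0.72, ATP5F1 -3.06 and ATP5C1 1.23, none of which passed the test. ATP5J was the called exception, at 52.3 and 59.8 CPM in GV and 178 and 107 CPM in IVO MII (edgeR adjusted p = 0.0443, log2 fold change 1.34 with SE 0.42). In the other complexes the exceptions were NDUFB6 (1.82) and COX7A2L (199 and 231 CPM in GV, 459 and 496 CPM in IVO MII), which has a role in joining complexes into supercomplexes. NDUFB2, ATP5A1, ATP5G2, ATP5O, ATP5D, ATPAF2, ATP5J, NDUFB6 and COX7A2L lost their calls without GV replicate 1 (edgeR adjusted p from 0.052 to 0.245) and NDUFB2, ATP5A1, ATP5L, ATP5E, ATP5O, ATP5D, ATP5J, NDUFB6 and COX7A2L without GV replicate 2 (adjusted p from 0.0523 to 0.176). NDUFB2, ATP5A1, ATP5D, ATPAF2, ATP5J, NDUFB6 and COX7A2L lost their calls without IVO MII replicate 1 (edgeR adjusted p from 0.0627 to 0.198), NDUFB2, ATP5O and COX7A2L without IVO MII replicate 2 (adjusted p from 0.0573 to 0.113), NDUFB2 and ATP5J without IVM MII replicate 1 (adjusted p from 0.0527 to 0.0656) and ATP5J without IVM MII replicate 2 (adjusted p = 0.0598). ATP5J, NDUFB6 and COX7A2L lost their calls with library totals without TMM (edgeR adjusted p from 0.0683 to 0.207). Complex I had 0 risen and 11 fallen members with GV replicate 1 left out, 0 and 7 with GV replicate 2 left out, and 2 and 14 with IVO MII replicate 2 left out. Complexes II to IV had 0 risen and 10 fallen members with GV replicate 1 left out, and 0 and 6 with GV replicate 2 left out. ATP synthase had 0 risen and 5 fallen members with GV replicate 1 left out, and 0 and 5 with GV replicate 2 left out.

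Mitochondrial ribosomal proteins, which build the ribosome that translates mitochondrial mRNAs, followed the same direction: 40 of 73 fell and 1 rose, with a median of -2.49. MRPL55 was at 164 and 158 CPM in GV and 2.55 and 3.16 CPM in IVO MII (edgeR adjusted p = 0.0021, log2 fold change -5.81 with SE 0.50). MRPS14, the member that rose, was at 240.2 and 346 CPM in GV and 1142 and 700.2 CPM in IVO MII (edgeR adjusted p = 0.0266, log2 fold change 1.65 with SE 0.45). The summed level of the list did not separate the groups, at 4976 and 5802 CPM in GV and 5382 and 3823 in IVO MII. MRPL43, an abundant member, had a log2 fold change of 0.79 (edgeR adjusted p = 0.112). MRPS14 lost its call without GV replicate 1 (edgeR adjusted p = 0.182), without GV replicate 2 (adjusted p = 0.0814), without IVO MII replicate 1 (adjusted p = 0.117) and with library totals without TMM (adjusted p = 0.076). The mitochondrial ribosomal proteins had 0 risen and 22 fallen members with GV replicate 2 left out, and 4 and 32 with IVO MII replicate 2 left out.

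Most of these genes are short, so they were set beside genes of the same length. In the shortest class, 17 of 30 complex I members fell, with a median of -2.48, and 30 of 47 mitochondrial ribosomal proteins with a median of -2.83, against 21.2% and a median of -0.73 for all genes of that class. Cytoplasmic ribosomal proteins are as short. In the same class 3 of 74 of them fell and 10 rose, with a median of 0.00. Over all lengths, 10 of 84 cytoplasmic ribosomal protein genes rose and 4 fell. The balance depended on single libraries: the list's median was -0.72 without IVO MII replicate 1 and 0.40 without replicate 2. The cytoplasmic ribosomal proteins had 0 risen and 1 fallen members with GV replicate 1 left out, 2 and 1 with GV replicate 2 left out, 2 and 12 with IVO MII replicate 1 left out, 11 and 0 with IVO MII replicate 2 left out, 3 and 10 with library totals without TMM, and 8 to 11 and 2 to 8 over the other tools and settings. RPL39L, a copy of a ribosomal protein gene, was at 136 and 149.6 CPM in GV and 7.69 and 5.75 CPM in IVO MII (edgeR adjusted p = 0.0197, log2 fold change -4.41 with SE 1.11), and RPL26L1, another such copy, at 3.72 and 15.6 CPM in GV and 87.3 and 46.0 CPM in IVO MII (edgeR adjusted p = 0.0184, log2 fold change 2.79 with SE 0.69). RPL30 had 1.73. Pseudogenes of these genes make single values uncertain. RPL26L1 and RPL30 lost their calls without GV replicate 1 (edgeR adjusted p from 0.0867 to 0.206) and RPL30 without GV replicate 2 (adjusted p = 0.14). RPL39L, RPL26L1 and RPL30 lost their calls without IVO MII replicate 1 (edgeR adjusted p from 0.0803 to 0.254), RPL39L without IVO MII replicate 2 (adjusted p = 0.0911), RPL30 without IVM MII replicate 1 (adjusted p = 0.0515) and without IVM MII replicate 2 (adjusted p = 0.0621). RPL30 lost its call in a fit of only the 4 libraries (edgeR adjusted p = 0.0614) and with library totals without TMM (adjusted p = 0.122).

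Glycolysis and the tricarboxylic acid cycle had 14 of 31 members fallen and 1 risen (median -1.73). PDHA1, a subunit of the pyruvate dehydrogenase that links both pathways (chromosome X, bases 17230626 to 17248806), was at 95.1 and 112 CPM in GV and 2.80 and 5.17 CPM in IVO MII (edgeR adjusted p = 0.00469, log2 fold change -4.69 with SE 0.81). DLAT, another component of the same enzyme complex, was at 5.84 and 7.18 CPM in GV and 41.5 and 26.3 CPM in IVO MII (edgeR adjusted p = 0.00613, log2 fold change 2.38 with SE 0.44). Subunits of the same complex thus moved in opposite directions. MDH1, the cytosolic malate dehydrogenase, had -2.60. Carriers of the inner mitochondrial membrane were mixed, with 6 of 38 risen (15.8%) and 8 fallen (21.1%), against 14.6% and 13.5% of all tested genes. SLC25A31, an ADP/ATP carrier known from germ cells, was at 80.3 and 77.0 CPM in GV and 453 and 532 CPM in IVO MII (edgeR adjusted p = 0.00211, log2 fold change 2.65 with SE 0.34), while SLC25A5, its widely expressed relative, had a log2 fold change of -0.18 (edgeR adjusted p = 0.75). SLC25A39 and SLC25A40, close relatives both linked to glutathione import, had -4.08 and 3.25. DLAT and MDH1 lost their calls without GV replicate 1 (edgeR adjusted p from 0.0716 to 0.0849) and without GV replicate 2 (adjusted p from 0.0502 to 0.118). MDH1 lost its call without IVO MII replicate 2 (edgeR adjusted p = 0.142), without IVM MII replicate 1 (adjusted p = 0.0557) and without IVM MII replicate 2 (adjusted p = 0.0595). Glycolysis and the cycle had 0 risen and 7 fallen members with GV replicate 1 left out, 0 and 7 with GV replicate 2 left out, and 1 to 4 and 13 to 17 over the other tools and settings. The carriers had 2 risen and 3 fallen members with GV replicate 1 left out, 2 and 4 with GV replicate 2 left out, 3 and 3 with IVO MII replicate 1 left out, 6 and 5 with IVO MII replicate 2 left out, and 2 and 12 with library totals without TMM.

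**Figure D4:**
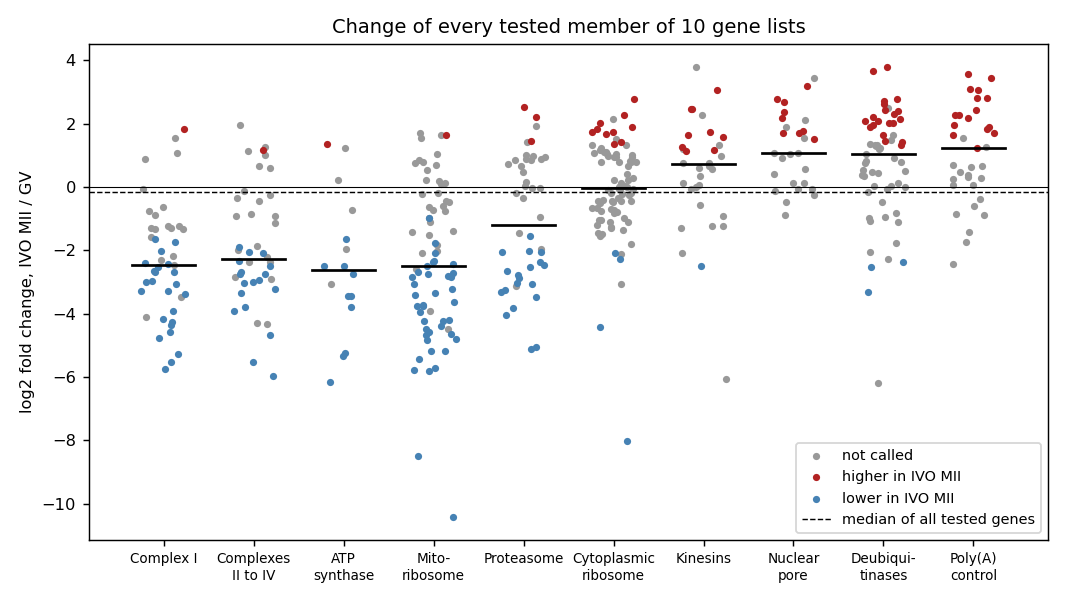
Log2 fold change of every tested member of 10 gene lists, coloured by its call, with the list's median as a bar and the median of all tested genes (-0.16) as a dashed line. The mitochondrial lists centre on -2.28 to -2.63, the cytoplasmic ribosome on -0.03 and poly(A) control on 1.24.

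Protein turnover was divided between its parts. In the proteasome 19 of 44 members fell and 3 rose (median -1.19). In the shortest class 7 of 21 fell and 3 rose with a median of -0.03, against 21.2% and 9.59% of all genes of that class. In the class next to the shortest 10 of 17 fell and 0 rose (median -2.38, against -0.88 for all genes of that class). PSMC5, an ATPase of the regulatory cap (chromosome 16, bases 61123764 to 61128666), was at 139 and 140.3 CPM in GV and 2.70 and 5.24 CPM in IVO MII (edgeR adjusted p = 0.0021, log2 fold change -5.13 with SE 0.61). PSMA2, an alpha subunit of the core, was at 168 and 218 CPM in GV and 1352 and 888 CPM in IVO MII (edgeR adjusted p = 0.00377, log2 fold change 2.54 with SE 0.41). The summed level was higher in IVO MII all the same, at 5059.8 and 5864 CPM in GV against 7234 and 7008, with PSMA7, an abundant alpha subunit, at a log2 fold change of 0.72 (edgeR adjusted p = 0.147). Deubiquitinases, which remove ubiquitin from proteins, went the other way: 20 of 59 rose and 3 fell (median 1.03, or 0.39 with library totals without TMM). In the longest class 11 of 27 deubiquitinases rose, against 24.1% of all genes of that class.

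UCHL1, a deubiquitinase abundant in oocytes and neurons (chromosome 5, bases 41001755 to 41013139), was at 508 and 598 CPM in GV and 50.6 and 60.3 CPM in IVO MII (edgeR adjusted p = 0.00223, log2 fold change -3.32 with SE 0.43). OTUD1, of the OTU family, was at 6.93 and 6.10 CPM in GV and 122 and 57.7 CPM in IVO MII (edgeR adjusted p = 0.00211, log2 fold change 3.79 with SE 0.49). USP1, which acts in DNA repair, had 1.90. Of the ubiquitin-conjugating enzymes 9 of 33 rose and 5 fell, with UBE2Q2 at 452 and 442 CPM in GV and 3083 and 2063 CPM in IVO MII (edgeR adjusted p = 0.00278, log2 fold change 2.53 with SE 0.36) and UBE2L6, the conjugating enzyme for ISG15, at -4.62. The shares of the conjugating enzymes were 27.3% risen and 15.2% fallen, against 14.6% and 13.5% of all tested genes. With library totals without TMM 5 of them rose and 7 fell. F-box proteins, the substrate adaptors of SCF ubiquitin ligases, had 13 of 62 risen and 9 fallen (8 and 14 without TMM). FBXO22 was at 116 and 127 CPM in GV and 2.09 and 5.21 CPM in IVO MII (edgeR adjusted p = 0.00263, log2 fold change -5.05 with SE 0.71), and FBXO9 at 167 and 154 CPM in GV and 1021 and 941 CPM in IVO MII (edgeR adjusted p = 0.00487, log2 fold change 2.61 with SE 0.46). UBE2L6 lost its call without GV replicate 1 (edgeR adjusted p = 0.0816) and USP1 and UBE2L6 without GV replicate 2 (adjusted p from 0.0576 to 0.0724). UBE2L6 lost its call without IVO MII replicate 1 (edgeR adjusted p = 0.122) and without IVO MII replicate 2 (adjusted p = 0.106). The proteasome had 2 risen and 11 fallen members with GV replicate 1 left out, 2 and 9 with GV replicate 2 left out, 3 and 12 with IVO MII replicate 1 left out, 5 and 19 with IVO MII replicate 2 left out, 7 and 22 with IVM MII replicate 3 left out, and 3 to 5 and 19 to 23 over the other tools and settings. The deubiquitinases had 7 risen and 2 fallen members with GV replicate 1 left out, 9 and 1 with GV replicate 2 left out, 25 and 6 with IVM MII replicate 3 left out, and 19 to 23 and 3 to 7 over the other tools and settings. The conjugating enzymes had 1 risen and 1 fallen members with GV replicate 1 left out, 2 and 1 with GV replicate 2 left out, 7 and 2 with IVO MII replicate 1 left out, 10 and 2 with IVO MII replicate 2 left out, and 9 to 10 and 5 to 8 over the other tools and settings. The F-box proteins had 6 risen and 5 fallen members with GV replicate 1 left out, and 7 and 5 with GV replicate 2 left out.

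Genes that act on mRNA itself were among those that rose. Of 35 members of the list on poly(A) control and deadenylation, 16 rose and none fell, with a median of 1.24 (12 rose and 2 fell, median 0.58, with library totals without TMM). Beside BTG4, PAPD5, a non-canonical poly(A) polymerase (chromosome 20, bases 37953893 to 38040642), was at 5.84 and 11.4 CPM in GV and 135 and 66.9 CPM in IVO MII (edgeR adjusted p = 0.00286, log2 fold change 3.56 with SE 0.52). CNOT4, a ubiquitin ligase associated with the CCR4-NOT deadenylase, was at 60.9 and 55.8 CPM in GV and 106 and 170.4 CPM in IVO MII (edgeR adjusted p = 0.0319, log2 fold change 1.24 with SE 0.36). Among genes of the longest class, 8 of the 13 members rose with a median of 1.63, against 24.1% and a median of 0.59 for all genes of that class. CNOT4 lost its call without GV replicate 1 (edgeR adjusted p = 0.179), without GV replicate 2 (adjusted p = 0.213), without IVO MII replicate 2 (adjusted p = 0.12), without IVM MII replicate 1 (adjusted p = 0.0547) and with library totals without TMM (adjusted p = 0.241). The list had 7 risen and 0 fallen members with GV replicate 1 left out, and 10 and 0 with GV replicate 2 left out.

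The machinery of N6-methyladenosine (m6A), a mark on mRNA, had 7 of 17 members risen and 1 fallen (median 0.77, or 0.24 without TMM). Of the complex that places the mark, WTAP (1.30), KIAA1429 (1.11), RBM15 (1.85) and ZC3H13 (1.88) rose. METTL3, its catalytic subunit, had -0.87 (edgeR adjusted p = 0.375). Of the readers, YTHDF3 was at 22.4 and 21.7 CPM in GV and 109.9 and 85.2 CPM in IVO MII (edgeR adjusted p = 0.00333, log2 fold change 2.15 with SE 0.33). IGF2BP3, which stabilises marked mRNAs, was at 251 and 253 CPM in GV and 1258 and 946 CPM in IVO MII (edgeR adjusted p = 0.00334, log2 fold change 2.13 with SE 0.33). YTHDC2 had 2.34. FTO, a demethylase, was the member that fell, at 38.9 and 60.7 CPM in GV and 17.0 and 17.5 CPM in IVO MII (edgeR adjusted p = 0.024, log2 fold change -1.53 with SE 0.41), while ALKBH5, the other demethylase, had 0.05 (edgeR adjusted p = 0.938). WTAP, KIAA1429, RBM15, ZC3H13, YTHDC2 and FTO lost their calls without GV replicate 1 (edgeR adjusted p from 0.0657 to 0.268) and WTAP, KIAA1429, RBM15, ZC3H13 and FTO without GV replicate 2 (adjusted p from 0.0607 to 0.229). WTAP, KIAA1429, YTHDC2 and FTO lost their calls without IVO MII replicate 1 (edgeR adjusted p from 0.077 to 0.152), FTO without IVO MII replicate 2 (adjusted p = 0.0615), KIAA1429 without IVM MII replicate 1 (adjusted p = 0.0694) and WTAP and KIAA1429 without IVM MII replicate 2 (adjusted p from 0.0552 to 0.0647). KIAA1429 lost its call with no filter on low counts (edgeR adjusted p = 0.0733) and WTAP, KIAA1429 and RBM15 with library totals without TMM (adjusted p from 0.0559 to 0.305). The list had 2 risen and 0 fallen members with GV replicate 1 left out, 3 and 0 with GV replicate 2 left out, and 4 and 0 with IVO MII replicate 1 left out.

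Components of stored and decapped mRNA particles moved both ways, with 7 of 27 risen and 6 fallen (6 and 12 without TMM). ZAR1L, an oocyte RNA-binding protein gene, was at 942 and 1117 CPM in GV and 183 and 143 CPM in IVO MII (edgeR adjusted p = 0.00286, log2 fold change -2.66 with SE 0.39). LSM14A, a component of P-bodies, was at 13.3 and 14.6 CPM in GV and 168 and 83.1 CPM in IVO MII (edgeR adjusted p = 0.00262, log2 fold change 3.17 with SE 0.44). EIF4E1B, the oocyte form of the cap-binding protein, had 2.17. In the RNA exosome, which degrades RNA from its end, EXOSC4 (-9.18), EXOSC2 (-4.58), EXOSC8 (-2.22) and EXOSC1 (-2.05) fell and EXOSC7 (1.55) rose, of 13 tested. EXOSC9 and EXOSC10 had 0.96 and -1.51 and did not pass the test. Of 27 nucleoporins 9 rose and none fell (median 1.07, and 5 risen and 1 fallen without TMM), with NUP58 at 33.6 and 34.5 CPM in GV and 419 and 207 CPM in IVO MII (edgeR adjusted p = 0.00267, log2 fold change 3.20 with SE 0.45). In the longest class 2 of 8 nucleoporins rose (median 1.05), against 24.1% of all genes of that class (median 0.59). In the class next to the shortest 2 of 6 rose (median 1.80, against 8.61% and -0.88 for all genes of that class). In the middle class it was 3 of 7 (1.52, against 11.9% and -0.34). In the class next to the longest it was 2 of 6 (0.03, against 18.8% and 0.22). EIF4E1B, EXOSC8 and EXOSC7 lost their calls without GV replicate 1 (edgeR adjusted p from 0.0656 to 0.115) and EIF4E1B, EXOSC8, EXOSC1 and EXOSC7 without GV replicate 2 (adjusted p from 0.0537 to 0.121). EIF4E1B lost its call without IVO MII replicate 1 (edgeR adjusted p = 0.0527) and EXOSC8 without IVO MII replicate 2 (adjusted p = 0.109). The particle list had 4 risen and 4 fallen members with GV replicate 1 left out, 5 and 2 with GV replicate 2 left out, and 7 and 11 with IVM MII replicate 3 left out. The nuclear pore had 4 risen and 0 fallen members with GV replicate 1 left out, and 4 and 0 with GV replicate 2 left out.

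Translation and splicing factors were divided. Of 46 initiation and elongation factors 9 rose and 9 fell (19.6% each, against 14.6% and 13.5% of all tested genes). EIF6, which keeps the ribosomal subunits apart (chromosome 10, bases 66747554 to 66753423), was at 296 and 300.4 CPM in GV and 5.71 and 11.0 CPM in IVO MII (edgeR adjusted p = 0.0021, log2 fold change -5.15 with SE 0.60). EIF4A2, an RNA helicase of initiation, was at 373 and 461 CPM in GV and 2130.2 and 1332 CPM in IVO MII (edgeR adjusted p = 0.00519, log2 fold change 2.05 with SE 0.37), and EIF4E3, of the cap-binding family, at 7.95 and 11.8 CPM in GV and 104 and 52.6 CPM in IVO MII (edgeR adjusted p = 0.0032, log2 fold change 2.99 with SE 0.46). Of the aminoacyl-tRNA synthetases 2 of 33 rose and 7 fell, among them YARS2 of mitochondria (-1.97), while IARS2, also mitochondrial, rose (2.08). Of 74 splicing factors 18 rose and 8 fell (8 and 10 without TMM). SNRPC, of the U1 particle, fell by 5.43 on the log2 scale and SNRPF and SNRPD1, of the Sm ring, had 3.32 and 1.70. EIF4A2, IARS2, SNRPF and SNRPD1 lost their calls without GV replicate 1 (edgeR adjusted p from 0.0517 to 0.106), IARS2 and SNRPD1 without GV replicate 2 (adjusted p from 0.0766 to 0.109) and IARS2 without IVO MII replicate 1 (adjusted p = 0.06). Translation factors had 3 risen and 4 fallen members with GV replicate 1 left out, 6 and 4 with GV replicate 2 left out, 8 and 5 with IVO MII replicate 1 left out, and 8 and 14 with library totals without TMM. Synthetases had 0 risen and 2 fallen members with GV replicate 1 left out, 0 and 4 with GV replicate 2 left out, 0 and 3 with IVO MII replicate 1 left out, and 2 to 3 and 7 to 11 over the other tools and settings. Splicing factors had 2 risen and 6 fallen members with GV replicate 1 left out, 4 and 5 with GV replicate 2 left out, and 11 and 9 with IVO MII replicate 1 left out.

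Cell cycle genes of one family moved in opposite directions. Maturation promoting factor (MPF), the complex of CDK1 with a B-type cyclin, drives entry into meiotic division; CDC25 phosphatases switch it on and WEE kinases hold it off. CCNB1 was at 326 and 381 CPM in GV and 1017 and 1215 CPM in IVO MII (edgeR adjusted p = 0.00733, log2 fold change 1.66 with SE 0.33), and CCNB2 at 432 and 449.6 CPM in GV and 170.1 and 183 CPM in IVO MII (edgeR adjusted p = 0.0141, log2 fold change -1.32 with SE 0.31). CCNB3 had 0.95 (edgeR adjusted p = 0.089). CDK1 was at 78.9 and 110.3 CPM in GV and 9.02 and 2.66 CPM in IVO MII (edgeR adjusted p = 0.024, log2 fold change -4.02 with SE 1.07). Of the phosphatases CDC25A rose (1.93) and CDC25B (-3.01) and CDC25C (-1.74) fell. Of 17 tested members 4 rose and 4 fell, and MASTL, the Greatwall kinase, and its substrates ENSA and ARPP19 had 0.56, 0.43 and -0.41, none of which passed the test. CCNB1, CCNB2, CDC25A, CDC25B and CDC25C lost their calls without GV replicate 1 (edgeR adjusted p from 0.0851 to 0.201) and CCNB1, CCNB2, CDK1, CDC25A, CDC25B and CDC25C without GV replicate 2 (adjusted p from 0.052 to 0.177). CCNB2, CDK1, CDC25B and CDC25C lost their calls without IVO MII replicate 1 (edgeR adjusted p from 0.053 to 0.0661), CDK1 and CDC25A without IVO MII replicate 2 (adjusted p from 0.103 to 0.182), CDC25A without IVM MII replicate 1 (adjusted p = 0.0531) and with library totals without TMM (adjusted p = 0.16).

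The pathway that holds the egg at metaphase II starts with MOS, a kinase that acts through MAP2K kinases on MAPK, and ends on the anaphase-promoting complex (APC), which EMI2, the product of FBXO43, inhibits. MOS was at 673 and 414 CPM in GV and 41.7 and 23.8 CPM in IVO MII (edgeR adjusted p = 0.00229, log2 fold change -4.05 with SE 0.54). MAP2K1, the next kinase (chromosome 7, bases 43976910 to 44091221), was at 162 and 172 CPM in GV and 1352 and 968 CPM in IVO MII (edgeR adjusted p = 0.0021, log2 fold change 2.80 with SE 0.33). FBXO43 was at 5.63 and 8.25 CPM in GV and 113 and 70.6 CPM in IVO MII (edgeR adjusted p = 0.0021, log2 fold change 3.72 with SE 0.43). MOS thus fell in both IVO MII libraries while MAP2K1 and FBXO43 rose in both. MAP2K2 had -4.90 from a low level and FBXO5, which encodes EMI1, -0.54 (edgeR adjusted p = 0.243).

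Subunits of the APC were uneven: ANAPC10 (2.31), CDC26 (1.71) and ANAPC1 (1.65) rose, and ANAPC13 (-3.28), ANAPC2 (-4.42) and the activator FZR1 (-3.07) fell, of 18 tested. The shares, 16.7% in each direction, were near the 14.6% risen and 13.5% fallen of all tested genes. CDC20, the activator used at metaphase, had -0.07 (edgeR adjusted p = 0.934). At the spindle, 11 of 32 checkpoint, kinetochore and cohesion genes rose and 5 fell. CASC5, a kinetochore scaffold also called KNL1, was at 33.9 and 40.8 CPM in GV and 272 and 178 CPM in IVO MII (edgeR adjusted p = 0.00249, log2 fold change 2.59 with SE 0.35). SPC24, a subunit of the NDC80 complex that binds microtubules, was at 58.3 and 71.9 CPM in GV and 0.713 and 5.48 CPM in IVO MII (edgeR adjusted p = 0.0126, log2 fold change -4.38 with SE 0.99). Of 32 kinesins 9 rose and 1 fell, with KIF20B at 161 and 199 CPM in GV and 1094 and 880.0 CPM in IVO MII (edgeR adjusted p = 0.00226, log2 fold change 2.45 with SE 0.32), the depolymerase gene KIF2A at 3.05 and KIF22 at -2.50. In the longest class 4 of 15 kinesins rose, near the 24.1% of all genes of that class (median 0.98 against 0.59). In the class next to the longest 4 of 12 rose, against 18.8% (median 0.71 against 0.22). In the middle class 1 of 5 rose, against 11.9% (median -0.05 against -0.34). MAP2K2, ANAPC10, CDC26, ANAPC1, ANAPC2, FZR1 and KIF22 lost their calls without GV replicate 1 (edgeR adjusted p from 0.0699 to 0.194) and MAP2K2, CDC26, ANAPC1, ANAPC2, FZR1 and KIF22 without GV replicate 2 (adjusted p from 0.0566 to 0.177). MAP2K2, CDC26, ANAPC2, FZR1 and KIF22 lost their calls without IVO MII replicate 1 (edgeR adjusted p from 0.0653 to 0.108), ANAPC2 without IVO MII replicate 2 (adjusted p = 0.118), MAP2K2 without IVM MII replicate 2 (adjusted p = 0.0569) and CDC26 and ANAPC1 with library totals without TMM (adjusted p from 0.0529 to 0.0619). The spindle list had 3 risen and 3 fallen members with GV replicate 1 left out, 7 and 4 with GV replicate 2 left out, and 7 and 5 with library totals without TMM. The kinesins had 3 risen and 0 fallen members with GV replicate 1 left out, 3 and 0 with GV replicate 2 left out, and 4 and 2 with library totals without TMM.

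Of 16 DNA methylation genes 7 rose and 2 fell (median 1.51, or 0.90 without TMM). DNMT3B, a de novo DNA methyltransferase (chromosome 10, bases 64152367 to 64183742), was at 19.7 and 22.5 CPM in GV and 117 and 129.6 CPM in IVO MII (edgeR adjusted p = 0.0032, log2 fold change 2.55 with SE 0.39). DNMT3A, its relative and the main de novo enzyme of growing oocytes (chromosome 13, bases 85559178 to 85669333), was at 61.1 and 69.9 CPM in GV and 8.92 and 14.0 CPM in IVO MII (edgeR adjusted p = 0.005, log2 fold change -2.52 with SE 0.44). TET3, which oxidises methylcytosine after fertilisation, was at 15.4 and 13.7 CPM in GV and 126 and 131 CPM in IVO MII (edgeR adjusted p = 0.00262, log2 fold change 3.14 with SE 0.43). DNMT1, the maintenance enzyme, had 1.60 and UHRF2 2.53, while UHRF1 had 0.68 and did not pass the test (edgeR adjusted p = 0.105). MBD4 (1.63) and MBD2 (3.17), which bind methylated DNA, rose, and TDG, a glycosylase gene under 1 CPM, fell (-4.04). DNMT1, MBD4, MBD2 and TDG lost their calls without GV replicate 1 (edgeR adjusted p from 0.0809 to 0.23) and without GV replicate 2 (adjusted p from 0.0576 to 0.208). MBD2 and TDG lost their calls without IVO MII replicate 1 (edgeR adjusted p from 0.104 to 0.121), TDG without IVO MII replicate 2 (adjusted p = 0.108) and MBD2 and TDG without IVM MII replicate 2 (adjusted p from 0.0563 to 0.0568). TDG lost its call with limma voom (adjusted p = 0.0513), with no filter on low counts (edgeR adjusted p = 0.0656), with the replicate block (adjusted p = 0.101), with the newer edgeR fit (adjusted p = 0.0589) and MBD4 and MBD2 with library totals without TMM (adjusted p from 0.0714 to 0.0997). The DNA methylation list had 3 risen and 1 fallen members with GV replicate 1 left out, and 3 and 1 with GV replicate 2 left out.

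Of 54 histone methyltransferases and demethylases 11 rose and 1 fell. In the longest class 6 of 24 rose, against 24.1% of all genes of that class, so the share was near the background of genes of that length. This group had 3 risen and 1 fallen members with GV replicate 1 left out, 4 and 1 with GV replicate 2 left out, 7 and 1 with IVO MII replicate 1 left out, 8 and 4 with IVO MII replicate 2 left out, 7 and 2 with library totals without TMM, and 10 to 12 and 1 to 4 over the other tools and settings. KDM3A, a demethylase of H3K9 (chromosome 13, bases 22940696 to 22994144), was at 24.6 and 28.5 CPM in GV and 360.3 and 216 CPM in IVO MII (edgeR adjusted p = 0.0021, log2 fold change 3.44 with SE 0.40). KDM1B, a demethylase needed for maternal imprints, had 2.67, and PRMT7, an arginine methyltransferase, was the member that fell (-3.82). Of 17 histones and histone chaperones 5 rose and 5 fell. NPM2, the oocyte nucleoplasmin that unpacks sperm chromatin, was at 496 and 482 CPM in GV and 24.7 and 56.7 CPM in IVO MII (edgeR adjusted p = 0.00263, log2 fold change -3.59 with SE 0.50). The variants MACROH2A1 (-2.74), MACROH2A2 (-2.53), H2AZ2 (-3.23) and H2AJ (-5.94) fell as well, whereas H3F3A (1.73) and H3F3B (1.30), which encode histone H3.3, H2AX (2.74) and the chaperones ASF1B (2.28) and NAP1L1 (1.98) rose. H1-8, the oocyte linker histone, had -0.29 (edgeR adjusted p = 0.656). KDM1B, MACROH2A2, H2AZ2, H2AJ, H3F3A, H3F3B, H2AX, ASF1B and NAP1L1 lost their calls without GV replicate 1 (edgeR adjusted p from 0.0526 to 0.219) and MACROH2A1, MACROH2A2, H2AZ2, H2AJ, H3F3A, H3F3B and ASF1B without GV replicate 2 (adjusted p from 0.0533 to 0.166). MACROH2A2, H2AZ2, H2AJ and H3F3A lost their calls without IVO MII replicate 1 (edgeR adjusted p from 0.0547 to 0.265), H2AZ2, H2AJ, H3F3B and ASF1B without IVO MII replicate 2 (adjusted p from 0.0502 to 0.282), H2AZ2, H3F3A and ASF1B without IVM MII replicate 1 (adjusted p from 0.051 to 0.0589) and H3F3A and ASF1B without IVM MII replicate 2 (adjusted p from 0.057 to 0.0619). H3F3A and ASF1B lost their calls in a fit of only the 4 libraries (edgeR adjusted p from 0.0546 to 0.0651), H2AZ2 and H3F3A with limma voom (adjusted p from 0.052 to 0.0585) and H3F3A, H3F3B and ASF1B with library totals without TMM (adjusted p from 0.12 to 0.131).

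In DNA repair and its checkpoint 10 of 37 rose and 4 fell. UNG, which removes uracil from DNA, was at 76.1 and 73.6 CPM in GV and 369 and 392 CPM in IVO MII (edgeR adjusted p = 0.00262, log2 fold change 2.35 with SE 0.33). CHEK1, the checkpoint kinase, was at 237 and 326 CPM in GV and 1336 and 954 CPM in IVO MII (edgeR adjusted p = 0.00508, log2 fold change 2.02 with SE 0.36). In the small RNA pathways PIWIL1 (-1.32) and TARBP2 (-4.87) fell, while DICER1 (1.66), DROSHA (2.10), AGO2 (2.04), the germline helicase gene DDX4 (1.73) and TDRD6 (2.49) rose, of 22 tested. Among the 370 zinc finger genes of the ZNF series, 32 rose (8.65%) and 57 fell (15.4%), against 14.6% and 13.5% of all tested genes. In the middle length class 5 of 120 rose and 26 fell, against 11.9% and 12.7% of all genes of that class. In the class next to the longest 11 of 114 rose and 14 fell, against 18.8% and 7.91%. In the longest class 14 of 93 rose and 6 fell, against 24.1% and 5.50%. ZNF12 had 3.80, ZNF560 -5.97 and ZNF410 -2.93. CHEK1, PIWIL1, TARBP2, DICER1, DROSHA, AGO2, DDX4 and TDRD6 lost their calls without GV replicate 1 (edgeR adjusted p from 0.0606 to 0.164) and PIWIL1, TARBP2, DICER1, AGO2, DDX4 and TDRD6 without GV replicate 2 (adjusted p from 0.0515 to 0.116). PIWIL1 and TARBP2 lost their calls without IVO MII replicate 1 (edgeR adjusted p from 0.07 to 0.0804), AGO2 without IVO MII replicate 2 (adjusted p = 0.0643), TARBP2 without IVM MII replicate 2 (adjusted p = 0.0525) and DICER1 and AGO2 with library totals without TMM (adjusted p from 0.0798 to 0.0948). The repair list had 2 risen and 1 fallen members with GV replicate 1 left out, and 3 and 1 with GV replicate 2 left out. The zinc finger genes had 9 risen and 20 fallen members with GV replicate 1 left out, 12 and 21 with GV replicate 2 left out, 23 and 33 with IVO MII replicate 1 left out, 15 and 81 with library totals without TMM, and 29 to 41 and 57 to 93 over the other tools and settings.

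In the subcortical maternal complex and the NLRP family, 4 of 16 fell and 1 rose. TLE6, a core subunit of the complex, was at 331 and 235 CPM in GV and 20.2 and 31.5 CPM in IVO MII (edgeR adjusted p = 0.00515, log2 fold change -3.45 with SE 0.62). PADI6, of the cytoplasmic lattices, had -2.33, NLRP5 -2.25 and NLRP14 -1.31. NLRP4 was at 1476 and 1135 CPM in GV and 6210.5 and 5779 CPM in IVO MII (edgeR adjusted p = 0.00308, log2 fold change 2.20 with SE 0.33). OOEP and KHDC3L, further members of the complex, had 0.17 and 0.28, and NLRP2, NLRP9, NLRP11 and NLRP13 lay between -0.76 and 1.30; none of these passed the test. PADI6, NLRP5 and NLRP14 lost their calls without GV replicate 1 (edgeR adjusted p from 0.083 to 0.132) and without GV replicate 2 (adjusted p from 0.0568 to 0.123). PADI6, NLRP5 and NLRP14 lost their calls without IVO MII replicate 1 (edgeR adjusted p from 0.0836 to 0.131) and NLRP5 and NLRP14 without IVO MII replicate 2 (adjusted p from 0.0811 to 0.0926).

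The oocyte signals to its surrounding cells with the growth factors GDF9 and BMP15, which had log2 fold changes of -0.84 (edgeR adjusted p = 0.202) and 0.15 (edgeR adjusted p = 0.787). Of the 19 members of their list, which also holds receptors and junction genes, 7 rose and none fell (6 and 1 without TMM). BMPR2, a type II receptor of bone morphogenetic proteins (chromosome 12, bases 91814899 to 92077449), was at 8.41 and 8.89 CPM in GV and 99.9 and 59.3 CPM in IVO MII (edgeR adjusted p = 0.00229, log2 fold change 3.20 with SE 0.43). ACVR1B, a type I activin receptor, was at 17.5 and 17.5 CPM in GV and 86.0 and 157 CPM in IVO MII (edgeR adjusted p = 0.00487, log2 fold change 2.79 with SE 0.49). ACVR1 (3.01), BMPR1A (2.71) and ACVR2B (2.03) of the same receptor family, the connexin gene GJC1 (1.79) and KIT (3.32) rose as well. KIT rested on IVO MII replicate 1, at 16.4 CPM, with 1.39 CPM in replicate 2 and 0.575 and 1.20 CPM in GV. BMPR1A, ACVR2B, GJC1 and KIT lost their calls without GV replicate 1 (edgeR adjusted p from 0.0688 to 0.221) and GJC1 and KIT without GV replicate 2 (adjusted p from 0.067 to 0.121). KIT lost its call without IVO MII replicate 1 (edgeR adjusted p = 0.574), without IVM MII replicate 1 (adjusted p = 0.0598), without IVM MII replicate 2 (adjusted p = 0.071) and without IVM MII replicate 3 (adjusted p = 0.055). KIT lost its call in a fit of only the 4 libraries (edgeR adjusted p = 0.0935), with limma voom (adjusted p = 0.214), with the replicate block (adjusted p = 0.0858) and with library totals without TMM (adjusted p = 0.0878). The list had 3 risen and 0 fallen members with GV replicate 1 left out.

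High cyclic AMP holds the GV oocyte in arrest. ADCY3, an adenylyl cyclase that makes it, was at 118 and 139 CPM in GV and 16.3 and 20.5 CPM in IVO MII (edgeR adjusted p = 0.00505, log2 fold change -2.81 with SE 0.50). PDE8A, a phosphodiesterase that breaks it down, was at 12.6 and 13.3 CPM in GV and 109 and 66.3 CPM in IVO MII (edgeR adjusted p = 0.0032, log2 fold change 2.76 with SE 0.42), and PDE3A, the main oocyte phosphodiesterase, had 1.12. PRKACB, a catalytic subunit of protein kinase A, had 3.25. GPR3 and GPR12, the receptors that keep the cyclase active, were at or below 2.56 CPM in every library and did not pass the test.

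Of 20 genes of sperm binding, cortical granules and calcium release, 3 fell and 3 rose. These shares were near the 14.6% risen and 13.5% fallen of all tested genes. The egg surface and granule genes IZUMO1R, the sperm receptor JUNO (-2.97), CD9, a tetraspanin of gamete fusion (-1.69), and ASTL, the protease ovastacin (-2.68), fell. The zona pellucida genes ZP1 to ZP4 had -0.40, -0.80, -0.84 and -1.37 and did not pass the test. Of the calcium handling genes, ATP2A2, the pump that refills the endoplasmic reticulum (chromosome 11, bases 113863949 to 113938383), was at 29.7 and 28.0 CPM in GV and 182 and 167 CPM in IVO MII (edgeR adjusted p = 0.00211, log2 fold change 2.60 with SE 0.33), and ATP2B1, a pump of the plasma membrane (chromosome 11, bases 93162771 to 93282129), was at 47.5 and 57.2 CPM in GV and 342 and 398 CPM in IVO MII (edgeR adjusted p = 0.0021, log2 fold change 2.82 with SE 0.34). TRPM7, a channel of the egg, had 2.25, and ITPR1, the release channel, 0.30 (edgeR adjusted p = 0.779). PDE3A, IZUMO1R, CD9, ASTL and TRPM7 lost their calls without GV replicate 1 (edgeR adjusted p from 0.0524 to 0.318) and without GV replicate 2 (adjusted p from 0.056 to 0.223). PDE3A, IZUMO1R, ASTL and TRPM7 lost their calls without IVO MII replicate 1 (edgeR adjusted p from 0.127 to 0.183), IZUMO1R and ASTL without IVO MII replicate 2 (adjusted p from 0.0559 to 0.0881), PDE3A without IVM MII replicate 1 (adjusted p = 0.0746) and PDE3A and IZUMO1R without IVM MII replicate 2 (adjusted p from 0.0644 to 0.0726). PDE3A lost its call in a fit of only the 4 libraries (edgeR adjusted p = 0.0697), TRPM7 with limma voom (adjusted p = 0.0526), PDE3A with no filter on low counts (adjusted p = 0.0926), with the replicate block (adjusted p = 0.065) and PDE3A and TRPM7 with library totals without TMM (adjusted p from 0.0924 to 0.354).

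Among 15 transcription factor genes known from the early embryo, YAP1, the effector of Hippo signalling, was at 8.23 and 9.96 CPM in GV and 75.3 and 62.7 CPM in IVO MII (edgeR adjusted p = 0.00232, log2 fold change 2.92 with SE 0.39). KLF4 (2.52) and KLF5 (1.67) rose too, and ZSCAN5B (-10.59), TEAD4 (-7.98, under 2 CPM) and DPPA5 (-1.18) fell; OTX2, the most abundant in GV, had -1.15 (edgeR adjusted p = 0.211). YAP1 and TEAD4, its DNA-binding partner, had opposite directions. The size of the TEAD4 change is uncertain. Its level was under 2 CPM, and 3 counts alone make 0.127 and 0.114 CPM of the unscaled IVO MII totals. POU5F1 and NANOG had 2.17 and 1.35 and did not pass the test. KLF4, KLF5, ZSCAN5B, TEAD4 and DPPA5 lost their calls without GV replicate 1 (edgeR adjusted p from 0.123 to 0.2) and KLF4, KLF5, TEAD4 and DPPA5 without GV replicate 2 (adjusted p from 0.176 to 0.233). KLF4, KLF5 and TEAD4 lost their calls without IVO MII replicate 1 (edgeR adjusted p from 0.102 to 0.177), TEAD4 and DPPA5 without IVO MII replicate 2 (adjusted p from 0.0952 to 0.128), KLF4, KLF5 and DPPA5 without IVM MII replicate 1 (adjusted p from 0.0528 to 0.0644) and without IVM MII replicate 2 (adjusted p from 0.0527 to 0.0721). KLF5 and DPPA5 lost their calls in a fit of only the 4 libraries (edgeR adjusted p from 0.0573 to 0.0804), ZSCAN5B with DESeq2 (adjusted p = 0.0875), TEAD4 with the replicate block (adjusted p = 0.0872) and KLF4 and KLF5 with library totals without TMM (adjusted p from 0.0957 to 0.13).

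Lipid, stress and lysosomal genes were mixed. In cholesterol synthesis HMGCS1, the first committed condensing enzyme of the pathway, was at 12.1 and 9.74 CPM in GV and 103 and 60.6 CPM in IVO MII (edgeR adjusted p = 0.00483, log2 fold change 2.91 with SE 0.51). INSIG2, which restrains the pathway in the endoplasmic reticulum, was at 488 and 547 CPM in GV and 86.5 and 71.5 CPM in IVO MII (edgeR adjusted p = 0.00393, log2 fold change -2.71 with SE 0.45). FDFT1 (1.71) and SC5D (1.31) rose, and FDPS (-4.04) and EBP (-1.42) fell. The antioxidant genes had 11 of 38 fallen and 2 risen, against 13.5% and 14.6% of all tested genes. In the shortest length class 5 of 17 fell, against 21.2% of all genes of that class (median -1.71 against -0.73). In the class next to the shortest 5 of 14 fell, against 655 of all 3275 genes of that class. The median of the list there was near the -0.88 of all genes of that class. GLRX, a glutaredoxin, was at 279 and 269 CPM in GV and 15.1 and 9.56 CPM in IVO MII (edgeR adjusted p = 0.0021, log2 fold change -4.48 with SE 0.50). GCLM, of glutathione synthesis, had 2.56.

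Of 72 chaperones 14 rose (19.4%) and 15 fell (20.8%), against 14.6% and 13.5% of all tested genes. HSP90AA1 was at 736 and 856 CPM in GV and 3238 and 2666 CPM in IVO MII (edgeR adjusted p = 0.00465, log2 fold change 1.89 with SE 0.33), DNAJB4, a heat shock co-chaperone, at 1.24 and 3.73 CPM in GV and 113 and 58.5 CPM in IVO MII (edgeR adjusted p = 0.00358, log2 fold change 5.11 with SE 0.81), and HSPA5, the chaperone of the endoplasmic reticulum, had -3.47. Of the vacuolar ATPase and lysosome list 7 of 32 fell and 2 rose. In the shortest length class 5 of 10 fell, against 21.2% of all genes of that class (median -3.17 against -0.73). In the class next to the shortest 2 of 14 fell, against 655 of all 3275 genes of that class (median -0.78 against -0.88). ATP6V1D, a subunit of the proton pump, was at 498 and 649.6 CPM in GV and 50.1 and 43.2 CPM in IVO MII (edgeR adjusted p = 0.00229, log2 fold change -3.62 with SE 0.48), LAMTOR4 had -6.28 and LAMP2, a membrane protein of the lysosome, 1.81. In autophagy MAP1LC3B (2.15) and GABARAPL2 (1.66), which mark the autophagosome, rose and ATG14 (-1.86) fell. FDFT1, SC5D, FDPS, EBP, GCLM, HSP90AA1, HSPA5, LAMP2, GABARAPL2 and ATG14 lost their calls without GV replicate 1 (edgeR adjusted p from 0.0525 to 0.202) and FDFT1, SC5D, FDPS, EBP, GCLM, HSPA5, LAMP2, GABARAPL2 and ATG14 without GV replicate 2 (adjusted p from 0.0543 to 0.148). SC5D, EBP, HSPA5, GABARAPL2 and ATG14 lost their calls without IVO MII replicate 1 (edgeR adjusted p from 0.0768 to 0.155), FDPS, HSPA5 and ATG14 without IVO MII replicate 2 (adjusted p from 0.0527 to 0.0987) and SC5D and GABARAPL2 with library totals without TMM (adjusted p from 0.0588 to 0.145). The antioxidant genes had 1 risen and 6 fallen members with GV replicate 1 left out, 1 and 5 with GV replicate 2 left out, and 4 and 8 with IVO MII replicate 2 left out. The chaperones had 4 risen and 3 fallen members with GV replicate 1 left out, 4 and 6 with GV replicate 2 left out, 10 and 9 with IVO MII replicate 1 left out, 9 and 14 with IVM MII replicate 1 left out, 9 and 13 with IVM MII replicate 2 left out, and 7 and 21 with library totals without TMM. The lysosome list had 1 risen and 11 fallen members with library totals without TMM, and 1 to 2 and 7 to 11 over the other tools and settings.

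**Figure D5:**
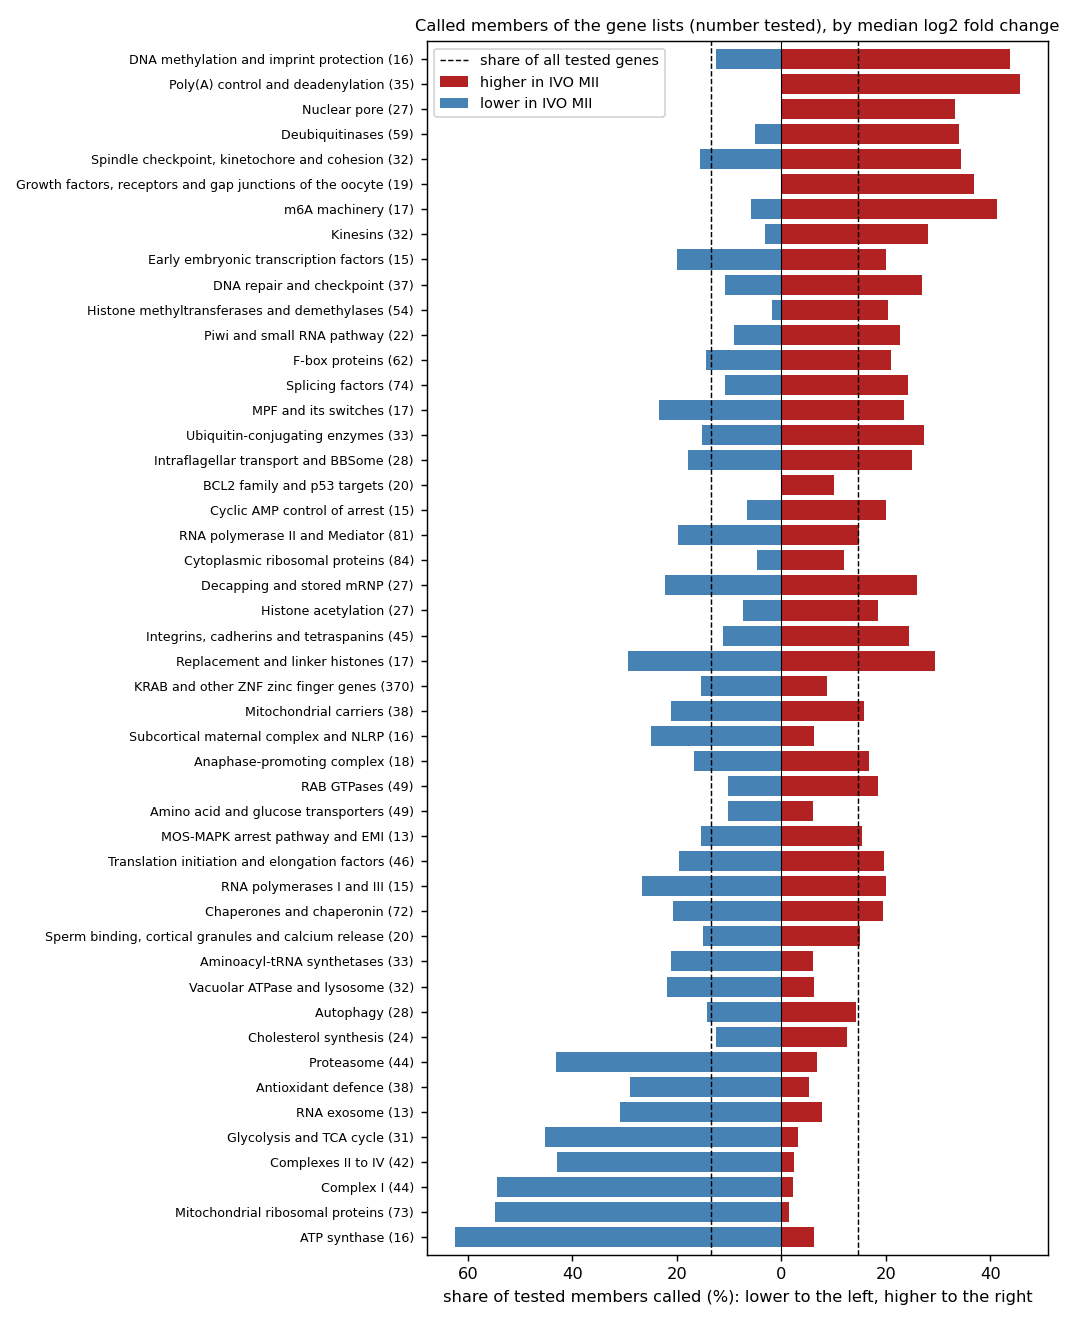
Share of the tested members of each of the 48 lists called higher (red, to the right) or lower (blue, to the left) in IVO MII, sorted by median log2 fold change, with the number tested in brackets and the shares of all tested genes (14.6% and 13.5%) as dashed lines. The respiratory chain, ATP synthase and mitochondrial ribosome lists stand at the bottom and the DNA methylation, poly(A) control and nuclear pore lists at the top.

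Close relatives did not always move together. Of 132 pairs of related genes, 116 had both members tested. In 13 both were called in the same direction and in 7 in opposite directions, while 58 had a single called member and 38 none. Of all tested genes 14.6% rose and 13.5% fell, so some pairs of either kind would arise among unrelated genes too. Whether related pairs differ from unrelated ones was not tested. Besides the pairs CCNB1 with CCNB2, DNMT3A with DNMT3B, CDC25A with CDC25B and MAP2K1 with MAP2K2 given above, PATL1, a decapping activator of somatic cells, was at 5.08 and 4.81 CPM in GV and 38.2 and 42.0 CPM in IVO MII (edgeR adjusted p = 0.00262, log2 fold change 3.02 with SE 0.42). PATL2, its oocyte relative, was at 277 and 176 CPM in GV and 23.9 and 50.4 CPM in IVO MII (edgeR adjusted p = 0.00489, log2 fold change -2.61 with SE 0.46). The level of PATL2 per kilobase was 68.0 CPM in GV and 11.2 in IVO MII, against 0.855 and 6.93 for PATL1. The remaining opposite pairs were RAB6A with RAB6B and MAP1LC3B with MAP1LC3A, whose falling members were under 20 CPM.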

How the data were processed

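Poly(A) RNA of monkey oocytes was reverse transcribed with template switching, amplified as full-length cDNA, tagmented and sequenced with paired ends, per the labels' protocols. The deposited values are raw gene counts that the authors had not normalized. The submitters' processing notes name featureCounts 2.0.1 for counting, Bowtie2 2.4.5 for alignment, SAMtools 1.15.1, Trim Galore 0.6.7 and DESeq2. The strand setting, the rule for multiply matching reads and the build were not given in these sources. With the match rule and the strand setting unstated, genes with near-identical copies, overlapping genes and antisense genes are uncertain. Reads over introns are not split by Bowtie2, and what this does to the counts of genes with many exons was not tested. The deposited table is also the source of all coordinates.

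The table held 28161 usable gene rows; 10 broken lines of MACF1, NEB and TTN were left out, and 26 names turned into dates had no symbol. Of 11294 locus rows 5013 matched the RefSeq gene table (assembly T2T-MFA8v1.1), which gave 721 symbols. There were 0 rows of the mitochondrial chromosome.

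All 7 libraries entered 1 fit of edgeR 4.0.16 (glmQLFit and glmQLFTest, TMM, filterByExpr, two-sided, Benjamini-Hochberg adjustment over 16374 genes) in R 4.3.3, with the contrast IVO MII minus GV; the spread is shared with the IVM MII libraries. Genes at an adjusted p under 0.05 were called. CPM use TMM-scaled library sizes unless said otherwise. A gene with 0 counts in a group was set to a floor of 3 counts in each library for lower bounds; this covers counting error alone, because amplified copies carry no molecular identifiers. The script was tested on simulated counts.

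Named genes were the 12 highest and 12 lowest fold changes and the 8 largest gains and 8 largest losses in CPM among called genes with a symbol and no overlap (the fold changes at 20 CPM or more in the higher group), up to 4 members per list by fold change and level, members of lists of at most 25, and pairs called in opposite directions. RAB6A, RAB6B and MAP1LC3A were named after their values were seen. A few genes that the rule selects are not reported here. The 48 lists, the pairs and the comparison were chosen with earlier results of these data known. Alternatives were a fit of the 4 libraries, DESeq2 1.42.0, limma voom (limma 3.58.1), upper quartile scaling, no filter, a replicate block and each library left out; a newer edgeR fit and library totals without TMM were added after seeing the data.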

Additional observations from a re-analysis of the deposited data

Results flagged for a closer look

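For 7 of the named genes that changed between GV and IVO MII, the change from GV differed after maturation in culture, by the edgeR contrast of IVM MII with IVO MII (241 genes, or 1.47% of those tested, passed it). The 2 changes share the GV libraries, so the contrast compares the MII groups directly.

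3 genes that fell in vivo were higher in IVM MII than in IVO MII. INSIG2 stayed below its GV mean after culture, while CD9 and PIWIL1 lay above theirs. INSIG2 was at 517 ± 41.4 CPM in GV (SD, n = 2), 79.0 ± 10.6 in IVO MII (SD, n = 2) and had an IVM MII mean of 426 (n = 3), a difference of 2.43 on the log2 scale (SE 0.42, edgeR adjusted p = 0.0368). CD9 was at 62.4 ± 9.68 CPM in GV and 19.4 ± 5.14 in IVO MII, and its IVM MII mean was 101, a difference of 2.38 (SE 0.36, edgeR adjusted p = 0.0271). PIWIL1 was at 62.9 ± 9.30, 25.2 ± 3.85 and 191 CPM, a difference of 2.93 (SE 0.33, edgeR adjusted p = 0.0117).

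4 genes rose in vivo. SEH1L, a nucleoporin gene, was at 60.8 ± 7.16, 174 ± 17.9 and 574 CPM, a difference of 1.72 (SE 0.33, edgeR adjusted p = 0.0476). TRAPPC8 was at 1654 ± 40.8, 14584 ± 3859 and 4295 CPM, a difference of -1.76 (SE 0.33, edgeR adjusted p = 0.0432). DAPK1 was at 1.44 ± 0.02, 77.5 ± 3.35 and 11.8 CPM, a difference of -2.71 (SE 0.40, edgeR adjusted p = 0.0250). ANKRD22, an ankyrin repeat gene, was at 2.15 ± 0.22, 169 ± 88.5 and 1.44 CPM, a difference of -6.89 (SE 0.75, edgeR adjusted p = 0.0104).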

How the results depend on the processing

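Of 16374 genes 4596 were called, 2392 higher and 2204 lower in IVO MII. The total was 4463 to 6313 over the other tools, scalings and filters, and none of the 4596 genes took the opposite sign where it was tested. Lower genes numbered 3443 with limma voom and 3440 with the newer edgeR fit, and higher genes 1340 with library totals without TMM; both of the last settings were chosen after seeing the data. DESeq2 called 6159 genes and shared 4584 of the 4596. Leaving out single libraries gave totals of 1484 to 5517, with 651 to 2803 higher and 833 to 2714 lower; without a GV library that group rests on 1 sample assumed to vary like the others. Replicate numbers are shared by the groups, but the deviations of same-numbered libraries correlated at -0.23, and nothing else pairs them. With the replicate block 4926 genes were called, 2498 higher and 2428 lower, and 4 of the 233 called genes selected by the naming rule lost their call.

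Risen members of the poly(A) list numbered 16, with 7 to 16 when single libraries were left out, fallen mitochondrial ribosomal proteins 40 (22 to 41) and fallen complex I members 24 (7 to 25). The median log2 fold change was -0.73 in the shortest class of gene length (-1.07 to -0.63 over the libraries left out, -1.36 with library totals without TMM) and 0.59 in the longest (0.42 to 0.60, and -0.022 with library totals without TMM, a reversal). That scaling shifts all genes alike: the difference between the classes was 1.32, from 1.19 to 1.64 over the libraries left out. The mean number of detected genes in IVO MII minus that in GV was -2128 at 1 CPM and -2160 at 5 CPM of the unscaled totals, and on TMM-scaled CPM, added after seeing the data, -1275.5 at 1 CPM and -1022 at 5 CPM. Of these 233 genes, 106 kept it without each library in turn, 117 without GV replicate 1, 131 without GV replicate 2 and 196 with library totals without TMM. With 2 libraries a group, an exact permutation test of a single value cannot go below p = 0.33. Small changes were mostly not detectable with this spread, also for abundant transcripts. The median SE of the log2 fold change was 0.72 over all tested genes and 0.47 at 20 CPM or more. Among the called genes, 6 risen and 1 fallen had changes under 2-fold.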

Other observations

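Genes of trafficking, cilia and membranes outside the lists described above were mixed. Of 49 RAB GTPases 9 rose and 5 fell, with RAB28, known from photoreceptor cilia, at 23.3 and 25.5 CPM in GV and 133 and 149.6 CPM in IVO MII (edgeR adjusted p = 0.00231, log2 fold change 2.54 with SE 0.34), and RAB4B, of recycling endosomes, at 95.8 and 77.8 CPM in GV and 1.27 and 8.79 CPM in IVO MII (edgeR adjusted p = 0.0118, log2 fold change -4.10 with SE 0.91). Of 28 intraflagellar transport and BBSome genes, which serve cilia, 7 rose and 5 fell. IFT74 had a log2 fold change of 2.93 and IFT22, of the same IFT-B complex, -3.41. Of 49 amino acid and glucose transporters 3 rose and 5 fell, against 14.6% and 13.5% of all genes tested. SLC38A11 was at 4.02 and 0.98 CPM in GV and 27.9 and 25.8 CPM in IVO MII (edgeR adjusted p = 0.00695, log2 fold change 3.42 with SE 0.66). The RAB genes had 2 risen and 1 fallen members with GV replicate 1 left out, 3 and 2 with GV replicate 2 left out, 5 and 2 with IVO MII replicate 1 left out, 10 and 9 with IVM MII replicate 3 left out, 5 and 8 with library totals without TMM, and 9 to 11 and 5 to 11 over the other tools and settings. The cilia list had 1 risen and 4 fallen members with GV replicate 1 left out, 1 and 4 with GV replicate 2 left out, 4 and 4 with IVO MII replicate 1 left out, and 1 and 5 with library totals without TMM. The transporters had 4 risen and 0 fallen members with GV replicate 1 left out, 1 and 0 with GV replicate 2 left out, 2 and 2 with IVO MII replicate 1 left out, 4 and 9 with IVM MII replicate 1 left out, 6 and 9 with IVM MII replicate 3 left out, 3 and 10 with library totals without TMM, and 3 to 8 and 5 to 12 over the other tools and settings.

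RNA polymerase III subunits went in both directions. POLR3K was at 134 and 173 CPM in GV and 12.2 and 8.91 CPM in IVO MII (edgeR adjusted p = 0.0032, log2 fold change -3.86 with SE 0.59) and POLR3C had -3.14, while POLR3G (1.26), POLR3GL (1.32) and POLR3E (2.46) rose. Of 81 genes of RNA polymerase II and Mediator 12 rose (14.8%) and 16 fell (19.8%), against 14.6% and 13.5% of all tested genes. MED29 was at 146 and 175 CPM in GV and 5.05 and 2.20 CPM in IVO MII (edgeR adjusted p = 0.00378, log2 fold change -5.47 with SE 0.89). TAF5 was at 18.7 and 16.4 CPM in GV and 156 and 98.3 CPM in IVO MII (edgeR adjusted p = 0.00397, log2 fold change 2.86 with SE 0.47). The cell death gene BCL2L11 had 3.03. POLR3G, POLR3GL, POLR3E and BCL2L11 lost their calls without GV replicate 1 (edgeR adjusted p from 0.0524 to 0.307) and without GV replicate 2 (adjusted p from 0.0584 to 0.147). POLR3G, POLR3GL and BCL2L11 lost their calls without IVO MII replicate 1 (edgeR adjusted p from 0.0571 to 0.198), POLR3GL without IVO MII replicate 2 (adjusted p = 0.0864), POLR3G and POLR3GL without IVM MII replicate 1 (adjusted p from 0.0655 to 0.0666) and POLR3G without IVM MII replicate 2 (adjusted p = 0.0679). POLR3G lost its call in a fit of only the 4 libraries (edgeR adjusted p = 0.0604), POLR3G and POLR3GL with no filter on low counts (adjusted p from 0.0568 to 0.0609) and POLR3G, POLR3GL and BCL2L11 with library totals without TMM (adjusted p from 0.0611 to 0.236). Polymerase II and Mediator had 3 risen and 5 fallen members with GV replicate 1 left out, 5 and 3 with GV replicate 2 left out, 8 and 10 with IVO MII replicate 1 left out, 9 and 10 with IVM MII replicate 2 left out, and 5 and 21 with library totals without TMM.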
